A study of Mus musculus with 15 samples.

Results

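Genomic imprinting leaves a gene active on the copy inherited from a single parent. The choice is written in the germ line as DNA methylation at control regions, and textbook accounts place H3K9me3 on the methylated copy of such a region and H3K4me3, the mark of active or poised starts, on the unmethylated copy. H3K27me3, laid down by Polycomb repressive complex, is a further repressive mark found across several imprinted clusters. Uhrf1 recognises hemimethylated DNA and brings the maintenance methyltransferase Dnmt1 to it, and imprinted control regions are classical targets of that maintenance. H3K4me3 together with either repressive mark over the same bases is therefore a natural readout at these loci, with the limit that region lists from bulk liver cannot tell the parental copies apart.

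The 37 imprinted protein-coding genes studied here were a fixed list of names, all found among the 21883 protein-coding genes of the annotation, and they fell into 16 imprinted clusters. For each gene the window was the gene and 5 kb on either side (median 36571 bp, from 11601 to 477683 bp, against a median of 27169 bp over all genes), and a gene was counted as marked when at least 1 bp of its window lay in a called region. The regions came from ChIP-seq of mononucleosomes from the liver of C57Bl/6 mice aged 8 to 12 weeks on a normal diet. Livers were either wild type (WT) or from Uhrf1hepKO mice (KO), a line which by its name lacks Uhrf1 in hepatocytes and leaves the other liver cells their Uhrf1. At baseline there were 2 H3K4me3 libraries for each genotype, 1 H3K9me3 library for each, and 2 WT and 1 KO library of H3K27me3. WT liver was also profiled for H3K27me3 alone at 30, 40 and 96 h of regeneration, 1 library a time, and WT replicate 2 served as 0 h. How regeneration was started is not stated, nor whether replicates came from separate animals.

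The libraries differed in how much they covered. H3K4me3 peaks of replicate 1 spanned 45.5 Mb (WT) and 44.9 Mb (KO), those of replicate 2 only 21.4 Mb and 25.3 Mb, so H3K4me3 is given as the bases in peaks of both libraries of a genotype unless stated. Broad H3K9me3 peaks spanned 57.7 Mb (WT) and 49.6 Mb (KO), and H3K27me3 islands between 378.0 Mb at 40 h and 500 Mb in the KO list. The control reads behind WT replicate 1 and KO were the same (414 of 414 islands with equal bounds had equal control counts), the 30, 40 and 96 h lists shared another, and 0 h had its own. Of 9 matched hepatocyte marker genes, all had H3K4me3 in all 4 libraries and 0 had an H3K27me3 island in any of 6 lists. Of 12 markers of other liver cells, 8 had H3K4me3 in both libraries of each genotype and 7 to 9 held an island. Uhrf1 itself kept H3K4me3 in its window (2808 and 1834 bp in WT, 2263 and 2573 bp in KO), which checks nothing about the deletion, since region lists hold no reads of a deleted exon. No test between groups was run on these lists of called regions, in which H3K9me3 and KO H3K27me3 have 1 library a genotype, and counts are given beside the same count over all protein-coding genes. In bulk liver, fewer cells with a mark and less of it in each cell cannot be told apart.

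The starts of 6 genes are shown first, because the H3K4me3 and H3K9me3 results below turn on them. Each is 300 bases, 5′ to 3′ on the gene's strand, from 250 bases before to 50 after an annotated start, taken from RefSeq on GRCm38.p6, with CpG dinucleotides in capitals. Zrsr1 (chr11:22971755-22972054, plus strand, 10 CpG) lay under an H3K9me3 peak in KO only. Mest (chr6:30737800-30738099, plus strand, 17 CpG), Mkrn3 (chr7:62420104-62420403, minus strand, 15 CpG) and Gnas (chr2:174327499-174327798, plus strand, 27 CpG) had both marks within 1 kb of the start in KO. Peg3 (chr7:6730370-6730669, minus strand, 13 CpG) and Zdbf2 (chr1:63200108-63200407, plus strand, 15 CpG) were chosen after their values were seen, the first because in WT H3K4me3 ended and H3K9me3 began within these bases (in KO the nearest H3K9me3 peak was 100 bp outside them) and the second because it was H3K9me3 from end to end.
Zrsr1: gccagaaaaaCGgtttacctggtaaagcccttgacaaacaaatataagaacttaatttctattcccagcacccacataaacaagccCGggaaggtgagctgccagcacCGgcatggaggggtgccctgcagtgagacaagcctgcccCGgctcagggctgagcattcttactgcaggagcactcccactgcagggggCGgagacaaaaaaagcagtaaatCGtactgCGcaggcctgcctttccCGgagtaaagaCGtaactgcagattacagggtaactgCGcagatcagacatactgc
Mest: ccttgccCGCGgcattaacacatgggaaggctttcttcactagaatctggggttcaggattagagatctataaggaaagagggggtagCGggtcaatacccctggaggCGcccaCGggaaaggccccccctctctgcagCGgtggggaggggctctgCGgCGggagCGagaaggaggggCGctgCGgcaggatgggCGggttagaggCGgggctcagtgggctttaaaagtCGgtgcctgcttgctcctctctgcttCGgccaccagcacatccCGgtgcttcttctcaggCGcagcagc
Mkrn3: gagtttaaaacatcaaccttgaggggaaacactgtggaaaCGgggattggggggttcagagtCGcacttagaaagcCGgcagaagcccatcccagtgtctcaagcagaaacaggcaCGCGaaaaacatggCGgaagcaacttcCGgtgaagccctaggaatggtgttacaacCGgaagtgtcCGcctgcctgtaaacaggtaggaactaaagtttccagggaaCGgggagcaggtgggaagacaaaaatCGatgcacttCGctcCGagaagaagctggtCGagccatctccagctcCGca
Gnas: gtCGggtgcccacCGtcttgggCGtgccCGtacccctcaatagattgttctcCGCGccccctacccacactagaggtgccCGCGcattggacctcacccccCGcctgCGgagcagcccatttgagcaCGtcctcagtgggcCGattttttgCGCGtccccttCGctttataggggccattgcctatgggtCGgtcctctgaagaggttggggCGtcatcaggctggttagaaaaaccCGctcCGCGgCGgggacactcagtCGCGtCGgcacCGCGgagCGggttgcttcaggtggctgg
Peg3: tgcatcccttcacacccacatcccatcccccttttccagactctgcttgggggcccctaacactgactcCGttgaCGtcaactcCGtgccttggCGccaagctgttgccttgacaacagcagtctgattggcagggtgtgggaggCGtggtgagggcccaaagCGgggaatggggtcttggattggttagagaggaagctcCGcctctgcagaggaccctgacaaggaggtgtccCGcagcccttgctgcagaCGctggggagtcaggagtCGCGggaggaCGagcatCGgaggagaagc
Zdbf2: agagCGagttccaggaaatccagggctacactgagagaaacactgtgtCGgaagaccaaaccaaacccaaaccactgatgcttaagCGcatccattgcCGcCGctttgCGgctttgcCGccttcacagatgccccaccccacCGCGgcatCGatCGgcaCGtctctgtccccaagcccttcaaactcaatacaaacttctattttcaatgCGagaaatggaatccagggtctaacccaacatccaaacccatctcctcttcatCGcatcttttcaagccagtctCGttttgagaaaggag

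The RefSeq promoter table matched 32 of the 37 genes with 48 promoters, and Impact, Klf14, Peg10, Rtl1 and Sgce had no entry. These promoters were rich in CpG, with a median of 15.5 CpG per 300 bases and an observed to expected ratio of 0.637, against 7.0 and 0.384 over all 32851 promoters. The hexamer TGCCGC, which lies within the binding motif of the imprint-protecting zinc-finger protein Zfp57, was searched on both strands. It was in 12 of the 48 promoters (25%) and in 3813 of all 32851 (11.6%). The hexamer itself holds a CpG, and the part of CpG richness in this difference was not tested. Some of the 48 overlap, such as the Mest promoters chr6:30737800-30738099 and chr6:30737803-30738102, which were both counted. The upstream Zdbf2 promoter held 3 copies and the Mest promoter 2, while those of Zrsr1, Mkrn3, Gnas and Peg3 held 0. A match is a run of letters in this window and no evidence of binding.

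Most of the imprinted genes had H3K4me3 in liver, and the same ones had it in both genotypes. In WT 23 of 37 windows held the mark in both libraries (62.2%, against 63.0% of all genes), and in KO the same 23 did (65.2% of all genes). They spanned 13 of the 16 clusters. By single library, a peak lay in 31 (WT replicate 1, 72.9% of all genes), 24 (WT replicate 2, 63.6%), 32 (KO replicate 1, 72.5%) and 25 (KO replicate 2, 66.5%) of the 37 windows. Zdbf2, Dlk1, the transmembrane regulator of fat-cell differentiation, and Rtl1, a retrotransposon-derived placental gene, had a peak in 0 of 4 libraries (25.4% of all genes had none). The largest share of a window was at Zrsr1, a retrogene for a splicing factor that sits in an intron of Commd1, where peaks covered 4892 and 2862 bp in WT and 5549 and 3183 bp in KO of a 14492 bp window. The window of Cd81, a tetraspanin gene of the Kcnq1 cluster, held 6465 and 3368 bp in WT and 7183 and 3887 bp in KO. Part of this lay over the neighbour Tssc4 (chr7:143068416-143071093), beyond the end of Cd81. In WT replicate 2 the strongest fold was 59.25 at Tssc4 and 41.13 at the start of Cd81. Zrsr1 and the start of Cd81 were thus both marked in all 4 libraries. The window of Nnat, the neuronatin gene nested in Blcap, held 3023 and 1967 bp in WT and 2742 and 2567 bp in KO, most of it in the peak over the Blcap start (chr2:157565291-157567257 in WT replicate 2, 5213 bp from the start of Nnat). Of the 300 bases of the Nnat promoter, 0 lay in H3K4me3 of both libraries in either genotype.

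Several of these peaks marked the internal starts that imprinted loci are known for. Within H13, a signal peptide peptidase gene, the retrogene Mcts2 (chr2:152687148-152687946) lay under a peak in every library, with folds over background of 13.13 and 21.05 in WT and 8.94 and 33.36 in KO for replicates 1 and 2. Igf2r, the receptor that clears Igf2, carried H3K4me3 at its own promoter and again at the start of Airn, the noncoding RNA that silences it in cis (start at 12741311 on chromosome 17). WT replicate 2 placed the latter peak at chr17:12741355-12741877 and KO replicate 2 at chr17:12741366-12742645. Snrpn, a spliceosomal protein gene, was marked at the shared Snurf start (chr7:60003863-60005156 in WT replicate 2, chr7:60003935-60005122 in KO replicate 2). The lengths of H3K4me3 in replicate 2 were greater in KO than in WT for 25 of 37 genes and smaller for 0. Over all genes these shares were 57.7% and 8.97%. In replicate 1 the direction was the other way, with 12 longer in KO and 20 in WT (30.7% and 43.2% of all genes), so the 2 pairs of libraries did not give 1 direction for H3K4me3 length.

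**Figure D1:**
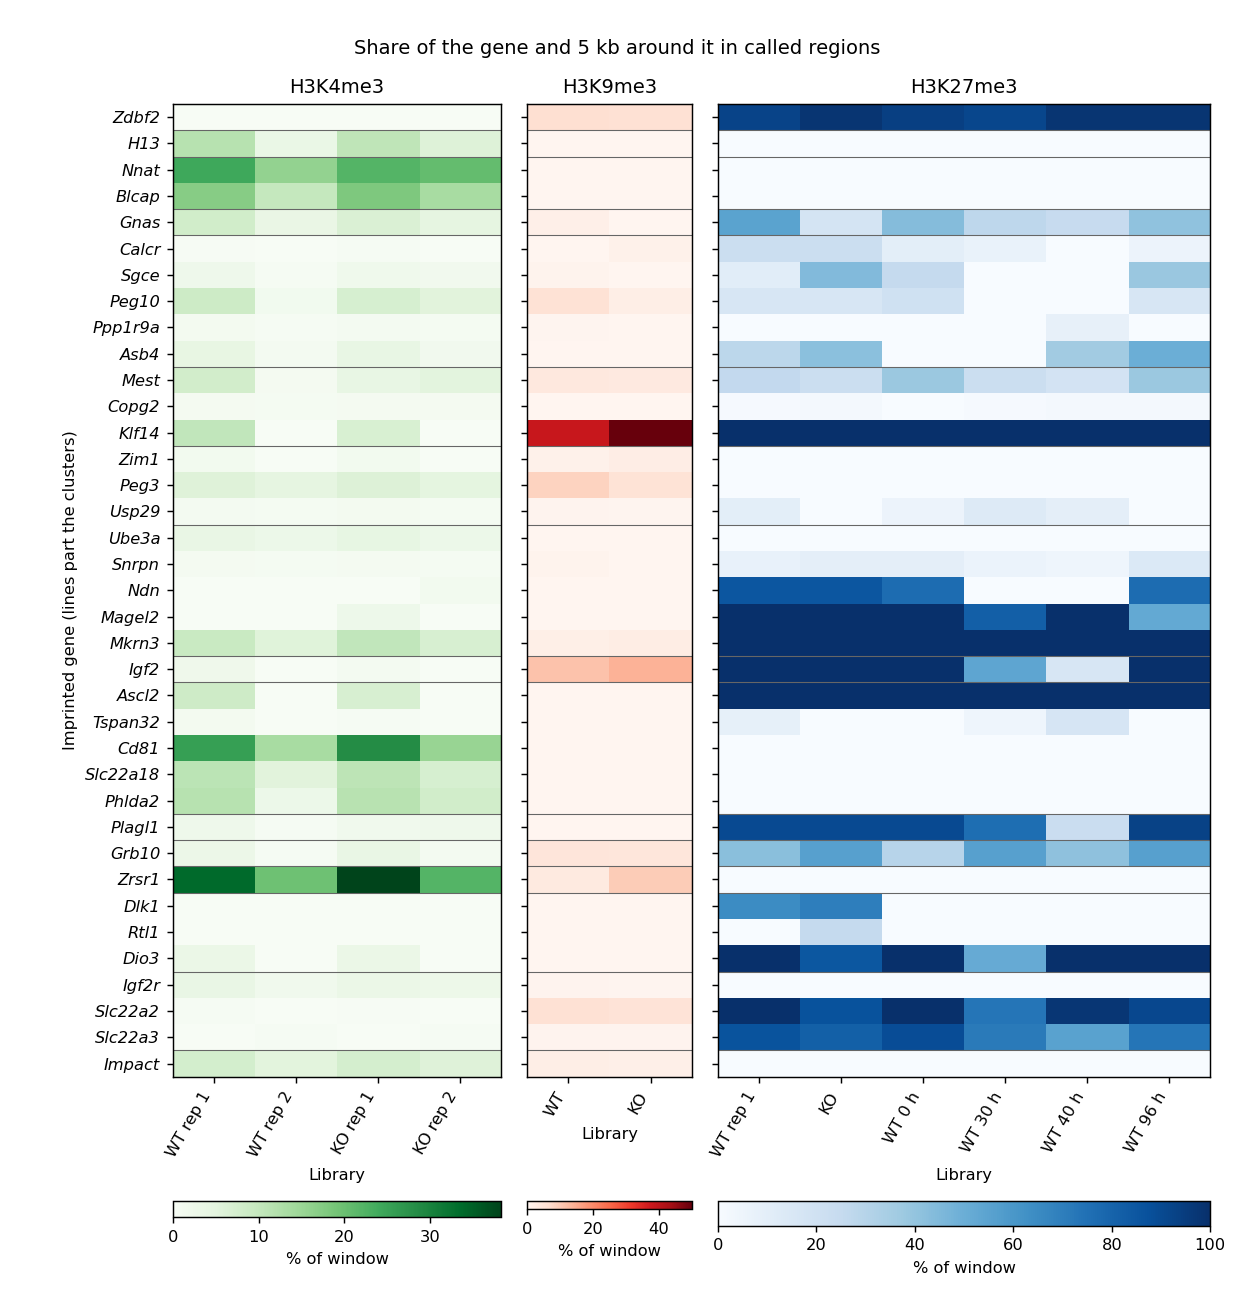
Share of each gene's window (gene and 5 kb around it, in percent) lying in H3K4me3 peaks, broad H3K9me3 peaks and H3K27me3 islands, 1 column a library and 1 row a gene, grouped by cluster, each mark with its own color scale. In WT 12 genes have H3K4me3 in both libraries and no island in WT replicate 1. Another 12 have the island without H3K4me3 shared by both libraries, and 11 have both. Klf14 stands out for H3K9me3 (38.0% of the window in WT, 50% in KO).

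H3K9me3 was called at about as many imprinted genes in both genotypes. Broad peaks lay in 19 of 37 windows in WT (51.4%, against 28.8% of all genes) and 20 in KO (54.1%, against 29.4%), in 11 clusters each. Window length moved with this mark, since the 6308 genes with H3K9me3 in WT had a median window of 55634 bp against 27169 bp over all genes, and its part in the count was not tested. The window of Sgce, which encodes epsilon-sarcoglycan, held a 528 bp peak in WT and none in KO (3.97% of all genes went this way). That peak (chr6:4747967-4748494) lay outside Sgce, in the body of its neighbour Peg10. Peg10 also lacked it in KO but had other peaks in both genotypes. Calcr, the calcitonin receptor gene, and Copg2, a coatomer subunit gene, had 1114 and 279 bp in KO and none in WT (4.52%). The other 18 had a peak in the window in both, which was not always the same peak. At Snrpn and Gnas no WT peak overlapped a KO peak. The length in the window fell at some genes and rose at others, as at Snrpn (3356 bp in WT, 486 bp in KO) and Zrsr1 (471 and 1393 bp).

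The member with the largest share of its window in H3K9me3 was Klf14, a single-exon transcription factor gene of the Mest cluster. There the mark covered 4933 bp in WT in 2 peaks and 6486 bp in KO in 1 peak (chr6:30955391-30961876), with strongest folds of 4.51 and 4.44. Igf2, the fetal growth factor gene, had a single peak upstream of its starts in both genotypes, chr7:142668743-142671694 in WT and chr7:142668213-142671843 in KO. Zdbf2 had the greatest total length, 7610 bp in WT and 7258 bp in KO, including a peak that held the whole upstream promoter printed above in both genotypes, chr1:63199345-63200927 in WT and chr1:63199903-63200781 in KO. Grb10, an adaptor that restrains insulin and growth factor receptors, had 5328 and 5079 bp, all in its body. None of the 5 genes of the Kcnq1 cluster, nor H13, Nnat, Blcap, Ube3a, Ndn, Magel2, Plagl1, Asb4 or the 3 genes of the Dlk1 cluster, had a broad H3K9me3 peak in either genotype.

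H3K4me3 and H3K9me3 shared bases at 0 of 37 genes in WT and at 5 in KO, namely Zrsr1, Impact, Mest, Gnas and Mkrn3. Over all genes the share was 0.411% in WT and 0.462% in KO. At Zrsr1 the overlap was 0 bp in WT and 552 bp in KO. At Impact, a regulator of translational control, it was 0 and 209 bp. At Mest, a paternally expressed hydrolase-fold gene, it was 0 and 139 bp. At Gnas, which encodes the stimulatory G protein subunit from several starts, it was 0 and 101 bp. At Mkrn3, a makorin ubiquitin ligase gene, it was 0 and 81 bp. Each lies in a different cluster, and each is known as a locus with a region methylated on a single parental copy.

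The KO stretches lay at or within 1 kb of a start, except at Impact. At Zrsr1 a 304 bp H3K9me3 peak (chr11:22971844-22972147) covered 211 of the 300 bases printed above and met the H3K4me3 that began at the start. A second peak (chr11:22972655-22973065) lay wholly within H3K4me3, 650 bp into the gene. WT had no H3K9me3 peak there: its single peak in the window, 471 bp long, ended 4265 bp from the H3K4me3. At Mest the shared 139 bp (chr6:30738640-30738778) were 587 bp inside the gene, at Gnas 101 bp (chr2:174327195-174327295) were at -454 bp from an internal start, and at Mkrn3 81 bp (chr7:62420380-62420460) were at -227 bp from the start. At Impact the stretch (chr18:12974467-12974675) lay inside the gene, at the edge of a row of H3K4me3 peaks that is separate from the one at the beginning of the gene. The KO H3K9me3 peaks at the 5 genes were weak, with folds over background of 3.14 to 3.37 and q-values from 0.00902 to 0.0243. With narrow H3K9me3 peaks 1 of the 37 genes overlapped in KO, and 0 did when broad peaks were held to a q-value no higher than 1e-05, while WT stayed at 0 with either.

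**Figure D2:**
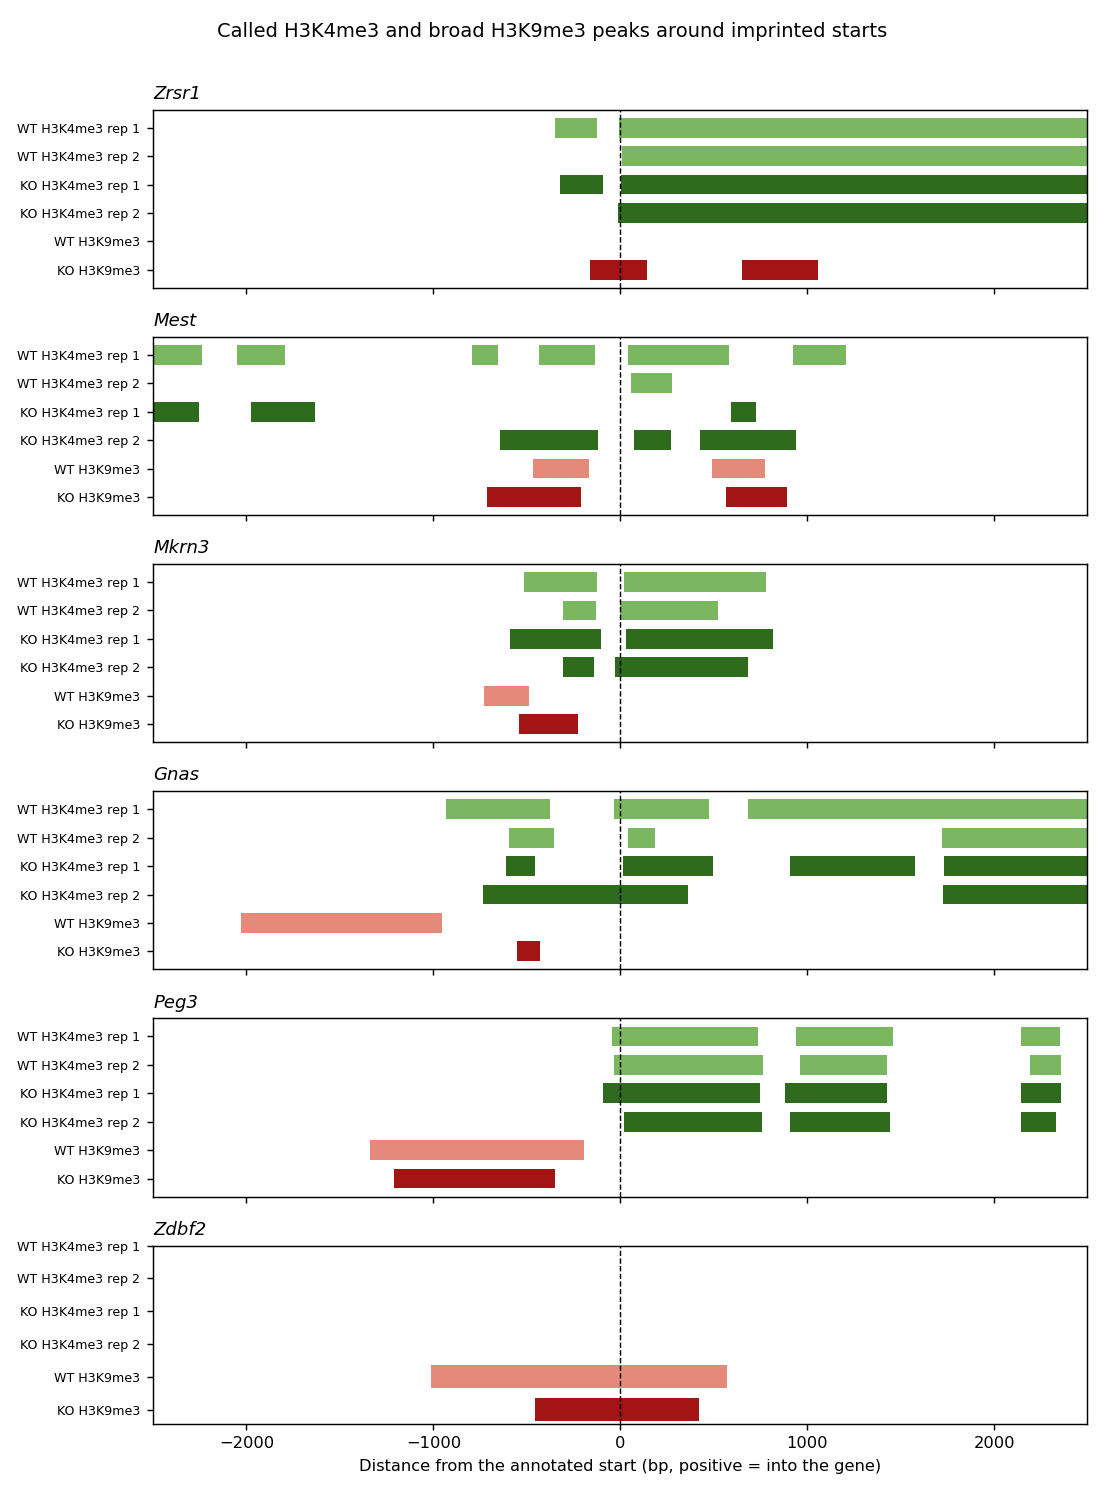
Called H3K4me3 peaks (green) and broad H3K9me3 peaks (red) before and after an annotated start of 6 imprinted genes (x axis, distance in bp), 1 row a library, light for WT and dark for KO. At Zrsr1 a red bar crosses the start in KO and none is drawn in WT. Mest, Mkrn3, Gnas and Peg3 have H3K9me3 beside H3K4me3 in both genotypes, and Zdbf2 has H3K9me3 alone.

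The WT count of 0 rested on H3K4me3 replicate 2, the sparser library. The replicate 2 libraries of both genotypes also carry an antibody tag naming H3K9me3 and were taken as H3K4me3 by title. With replicate 1 alone 7 genes overlapped in WT (2.86% of all genes) and 7 in KO (3.26%). With replicate 2 alone the counts were 0 (0.594%) and 5 (0.576%). By replicate 1, WT overlapped at Klf14 (910 bp), Sgce and Peg10 (437 bp, 1 shared stretch), Mest (363 bp), Igf2 (321 bp), Impact (146 bp) and Mkrn3 (24 bp). KO by replicate 1 overlapped at Klf14 (876 bp), Zrsr1 (622 bp), Impact (400 bp), Mkrn3 (317 bp), Igf2 (244 bp), Mest (139 bp) and Gnas (101 bp). Zrsr1 and Gnas were thus the genes that overlapped by either KO library and by no WT library. Mest, Mkrn3 and Impact also overlapped by WT replicate 1. At Gnas, though, H3K9me3 in the window was longer in WT (1215 bp) than in KO (124 bp). The nearest WT H3K9me3 peak ended at chr2:174326794, and an H3K4me3 peak of WT replicate 1 began at chr2:174326816. At Zrsr1 the window held 471 bp of H3K9me3 in WT and 1393 bp in KO. Replicate 2 covered more in KO than in WT by 25.3 to 21.4 Mb and H3K9me3 covered less, 49.6 against 57.7 Mb, and the part of these differences in the result was not tested.

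**Figure D3:**
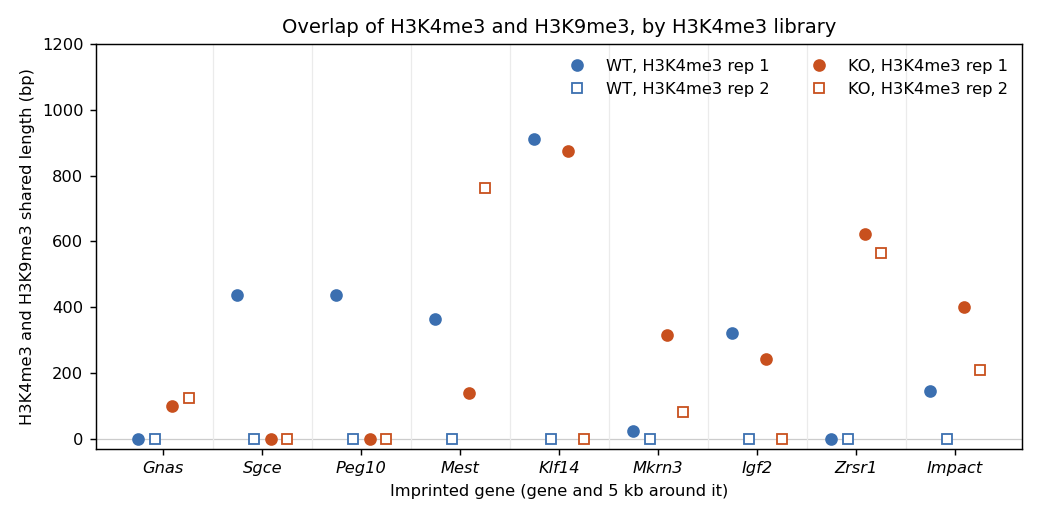
Bases shared by H3K4me3 and broad H3K9me3 peaks (in bp) in the windows of the 9 imprinted genes with any overlap, by genotype (blue WT, orange KO) and H3K4me3 library (filled circle replicate 1, open square replicate 2). All WT replicate 2 points are at 0, and Zrsr1 and Gnas are above 0 in both KO libraries and at 0 in both WT libraries.

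With H3K4me3 taken from both libraries, the marks in WT often stopped just short of each other. By replicate 1 alone they overlapped at Mest (363 bp), Impact (146 bp) and Mkrn3 (24 bp), so the gaps there depend on replicate 2. The gap between H3K4me3 and the nearest H3K9me3 peak was 60 bp at Impact, 160 bp at the divergent start of Peg3 and Usp29, 185 bp at Mkrn3, 212 bp at Mest and 359 bp at Gnas. Counting H3K4me3 within 500 bp of H3K9me3, a distance chosen after seeing the data, gave 6 genes in WT (0.676% of all genes) and 7 in KO (0.795%), the additional one being Zrsr1. Peg3, a zinc-finger gene, had H3K4me3 into the gene and H3K9me3 upstream in both genotypes, and the gap was 160 bp in WT and 367 bp in KO. Of the 7 KO genes, 6 were thus also within that distance in WT.

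H3K27me3 islands covered long stretches of imprinted clusters, and the clusters were not covered evenly. WT replicate 1 had islands in 23 of 37 windows (62.2%, against 30.1% of all genes), KO in 22 (59.5%, against 32.2%) and WT replicate 2 in 19 (51.4%, against 37.7%). All 6 lists had an island at 14 genes (19.1% of all genes), which were Zdbf2, Gnas, Mest, Klf14, Snrpn, Magel2, Mkrn3, Igf2, Ascl2, Plagl1, Grb10, Dio3, Slc22a2 and Slc22a3. No list had one at 12 genes (54.4%), H13, Nnat, Blcap, Zim1, Peg3, Ube3a, Cd81, Slc22a18, Phlda2, Zrsr1, Igf2r and Impact. The Kcnq1 cluster was divided, with Ascl2, a placental transcription factor gene, wholly inside an island in every list and Cd81, Slc22a18 and Phlda2 outside islands in every list. The Igf2r cluster was divided in the same way, with the cation transporter genes Slc22a2 and Slc22a3 in islands and Igf2r out.

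The islands that covered imprinted genes were often single domains over several neighbours. In WT replicate 1 an island of 133000 bp (chr7:62345001-62478000, 1.73-fold over control) took in Ndn, Magel2 and Mkrn3, and in KO one of 122000 bp (chr7:62345001-62467000, 1.70-fold) did. Igf2 lay within 184000 bp in WT (2.29-fold) and 191000 bp in KO (1.95-fold). Klf14 was covered over 100% of its window in all 6 lists, and its island and its H3K9me3 occupied the same bases over 4933 bp in WT and 6486 bp in KO. H3K9me3 and H3K27me3 shared bases at 9 genes in WT (6.77% of all genes) and 7 in KO (7.63%). Zdbf2, Klf14, Mkrn3, Igf2, Grb10, Slc22a2 and Slc22a3 were common to both, and Gnas (421 bp) and Mest (213 bp) overlapped in WT alone.

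Between WT replicate 1 and KO 3 imprinted genes differed in whether they held an island, and between the 2 WT libraries 4 did. From WT replicate 1 to KO, Usp29 and Tspan32 had an island in WT and none in KO (2.65% of all genes), and Rtl1 had none in WT and 12418 bp in KO (4.74%). From WT replicate 1 to WT replicate 2 an island was absent at Asb4, Copg2, Tspan32 and Dlk1 (2.57%) and new at 0 genes (10.3%). From WT replicate 2 to KO, Usp29 was without (8.32%) and Asb4, Copg2, Dlk1 and Rtl1 were new (2.73%). The islands counted at Copg2 and Tspan32 lay in the 5 kb before the gene and did not reach the gene itself. Usp29, a deubiquitinase gene, and Rtl1 differed from both WT libraries in the same direction. Usp29 had 25000 and 14000 bp in WT and 0 in KO, in the part of a 246662 bp window far from its start. These WT islands were weak and did not overlap (chr7:6939001-6964000, 1.36-fold, in replicate 1 and chr7:6913001-6927000, 1.54-fold, in replicate 2). WT at 96 h also had 0 bp at Usp29. Rtl1 had 0, 0 and 12418 bp. At Gnas, marked in all lists, the island share of the window was 54.8% and 43.7% in the WT libraries and 17.5% in KO. At Sgce it was 10.9% and 25.3% in WT and 44.2% in KO. At Dlk1 it was 64.8% and 0% in the WT libraries and 69.6% in KO, so the WT libraries lay further apart than WT replicate 1 and KO, which shared a control.

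H3K4me3 and H3K27me3 shared bases at the same 5 genes in both genotypes. These were Asb4 (592 bp in WT, 918 bp in KO), Snrpn (726 and 860 bp), Mkrn3 (679 and 822 bp), Plagl1 (234 and 797 bp) and Grb10 (323 and 507 bp). Over all genes 6.57% overlapped in WT and 8.1% in KO. The longer KO stretches stand beside the wider H3K4me3 replicate 2 peaks of KO at these genes, for example 1206 bp against 234 bp at Plagl1, a zinc-finger growth regulator. The overlap lay on an annotated start at Asb4 (chr6:5390181-5390629 in WT) and Plagl1 (chr10:13090810-13091043), and within 30 bp of one at Mkrn3 in both genotypes. At Grb10 the longest WT stretch was 18 bp from the start (chr11:12037238-12037402) and the longest KO stretch 982 bp into the gene (chr11:12036168-12036438). At Snrpn it lay far upstream of the Snurf start (chr7:60391205-60391651), which was itself outside islands. With WT replicate 2 as the H3K27me3 list Asb4 dropped out and Sgce and Peg10 came in with 1 shared stretch of 225 bp, giving 6 genes (9.11%).

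With H3K4me3 of both libraries, Mkrn3 was the gene at which H3K4me3, H3K9me3 and H3K27me3 were all called over common bases in KO. Its window lay wholly inside an island and 81 bp carried both of the other marks. With H3K4me3 replicate 1 alone, Klf14 (876 bp) and Igf2 (244 bp), also wholly inside islands, joined it in KO. In WT replicate 1 the same held at Klf14 (910 bp), Igf2 (321 bp) and Mkrn3 (24 bp). Snrpn, Plagl1, Grb10 and Asb4 shared H3K4me3 with H3K27me3 and not with H3K9me3. Zrsr1 and Impact shared it with H3K9me3 alone and were free of islands in all 6 lists. In window terms, H3K4me3 again meant bases in peaks of both libraries. In WT 12 genes had H3K4me3 and no island (48.7% of all genes) and 12 had an island and no H3K4me3 (15.8%). A further 11 had both somewhere in the window (14.3%), and Zim1 and Rtl1 had neither (21.2%). The corresponding counts in KO were 13 (48.1%), 12 (15.0%), 10 (17.2%) and 2 (19.8%). The genes with an island and no H3K4me3 shared by both libraries included Igf2, Ndn, Magel2, Dlk1 and Dio3. Of these, Dlk1 had no peak in any library. Replicate 1 had 563 bp (WT) and 244 bp (KO) at Igf2 and 369 bp (WT) and 384 bp (KO) at Dio3. Magel2 had 361 bp in KO replicate 1 and Ndn 146 bp in KO replicate 2.

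**Figure D4:**
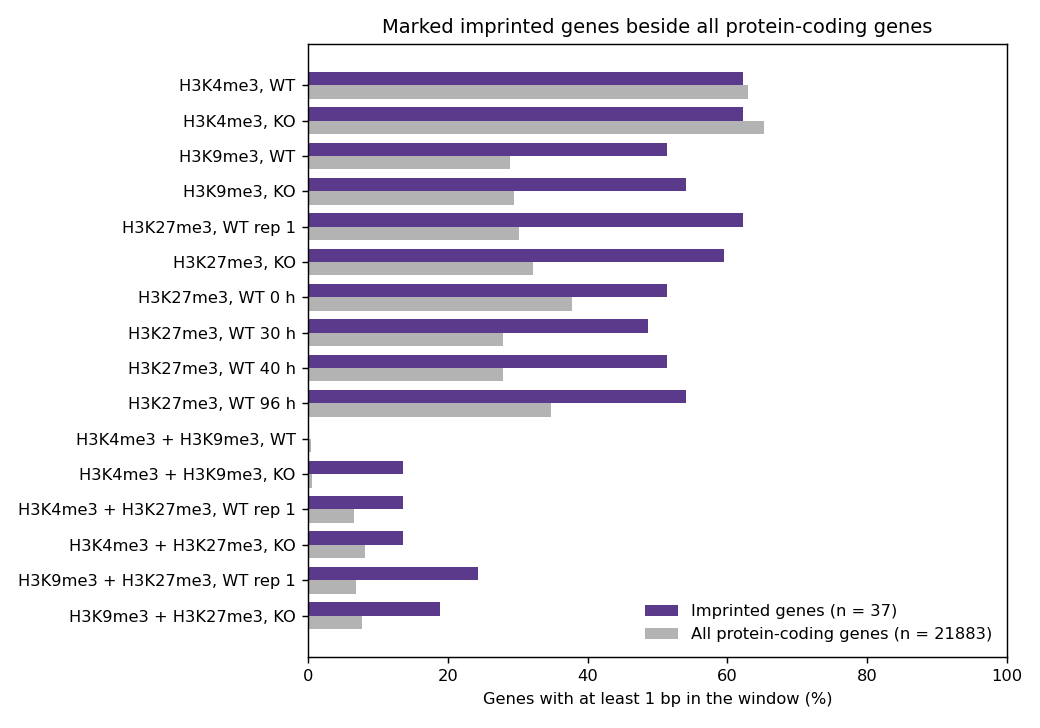
Percent of the 37 imprinted genes (purple) and of all 21883 protein-coding genes (gray) whose window holds at least 1 bp of each mark, and of pairs of marks over the same bases, by genotype or time. H3K4me3 is near the gray bar in both genotypes (62.2% against 63.0% in WT), H3K9me3 and H3K27me3 are above it in every list, and H3K4me3 with H3K9me3 is 0 in WT and 5 genes in KO.

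During regeneration of WT liver 19 imprinted genes had an H3K27me3 island at 0 h (37.7% of all genes) and 18 at 30 h (27.9%). The number was 19 at 40 h (27.8%) and 20 at 96 h (34.7%). The length covered was shorter than at 0 h at 14 genes at 30 h and longer at 4 (26.6% and 8.84% of all genes), shorter at 11 and longer at 7 at 40 h (27.7% and 8.58%), and shorter at 7 and longer at 7 at 96 h (21.8% and 11.8%). All 4 times had an island at 14 genes (20.3% of all genes). Ndn, Sgce and Peg10 had one at 0 and 96 h and at neither 30 nor 40 h (4.56%). Ndn, the gene of necdin, was covered over 76.6%, 0%, 0% and 76.6% of its window at 0, 30, 40 and 96 h. Sgce had 25.3%, 0%, 0% and 38.6%. Peg10 had 20.2%, 0%, 0% and 15.9%. The 3 genes lie in 2 clusters and Sgce and Peg10 share their island, so these were 2 separate stretches of chromatin.

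Igf2 and Plagl1, both fetal growth genes, had their lowest coverage at 40 h. Igf2 was wholly covered at 0 h, over 53.9% at 30 h, over 16.3% at 40 h and wholly again at 96 h. Its islands at 30 h left the interval between 142654000 and 142666001 on chromosome 7 uncovered, and the 40 h island ended at 142650000, beyond the 3′ end of the gene. Plagl1 went from 90.2% at 0 h through 76.1% and 23.0% to 92.7%, and its start, inside an island at 0 and 96 h, was outside at 30 h, when the island began 2169 bp into the gene, and at 40 h. In the 2 baseline lists without a time, WT replicate 1 and KO, both genes were covered as at 0 h (100% and 90.2%).

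Among the other members some kept their coverage, some also had it lowest at 40 h and some at another time. Klf14, Mkrn3 and Ascl2 were at 100% at all 4 times, and Zdbf2 between 91.1% and 97.9%. Dio3, which encodes the deiodinase that inactivates thyroid hormone, was at 100% except for 51.4% at 30 h. Magel2 was at 82.0% at 30 h and 52.3% at 96 h, when the domain over Ndn, Magel2 and Mkrn3 was split into chr7:62346001-62377000 and chr7:62384001-62467000 with nearly all of its body in the gap. Gnas, Mest, Slc22a2 and Slc22a3 were all lower at 30 and 40 h than at 0 h. Gnas had 43.7%, 27.6%, 24.4% and 41.0% at the 4 times. The Gnas islands at 30 h (chr2:174307001-174327000) and 40 h (chr2:174277001-174297000) were separate stretches. Mest had 38.0%, 22.0%, 18.0% and 38.0%. The whole Mest island was longer at 30 h (39000 bp, chr6:30695001-30734000) than at 0 h (10000 bp, chr6:30728001-30738000), but lay mostly outside the window. Slc22a3 had 88.7%, 71.3%, 55.3% and 73.4%. Grb10 was higher at each later time than at 0 h, with 29.4%, 56.0%, 41.4% and 56.0%. Its 0 h share was also the lowest of all lists, with 42.3% in WT replicate 1 and 56.0% in KO, both without regeneration.

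Some windows were without an island at 0 h and held one later. At 30 h these were the windows of Copg2 and Tspan32 (2.71% of all genes), while Ndn, Sgce and Peg10 had lost the call they had at 0 h (12.6%). At Copg2 and Tspan32 the islands reached the 5 kb before the gene and not the gene itself, at this and the later times. At 40 h Ppp1r9a, Asb4, Copg2 and Tspan32 had one (3.13%) and Calcr, Sgce, Peg10 and Ndn did not (13.1%). At 96 h Asb4 and Copg2 had one (4.02%) and Usp29 did not (7.11%). Asb4 had 0%, 0%, 36.2% and 49.7% of its window in islands. The 0 h library had another control than the other times, and its difference from WT replicate 1, also WT at baseline, already included Asb4, Copg2 and Tspan32. The ChIP reads in islands were 21738935 at 0 h, 15168562 at 30 h, 12764569 at 40 h and 21374188 at 96 h, lowest at the times of lowest coverage, and the part of this in the coverage was not tested.

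**Figure D5:**
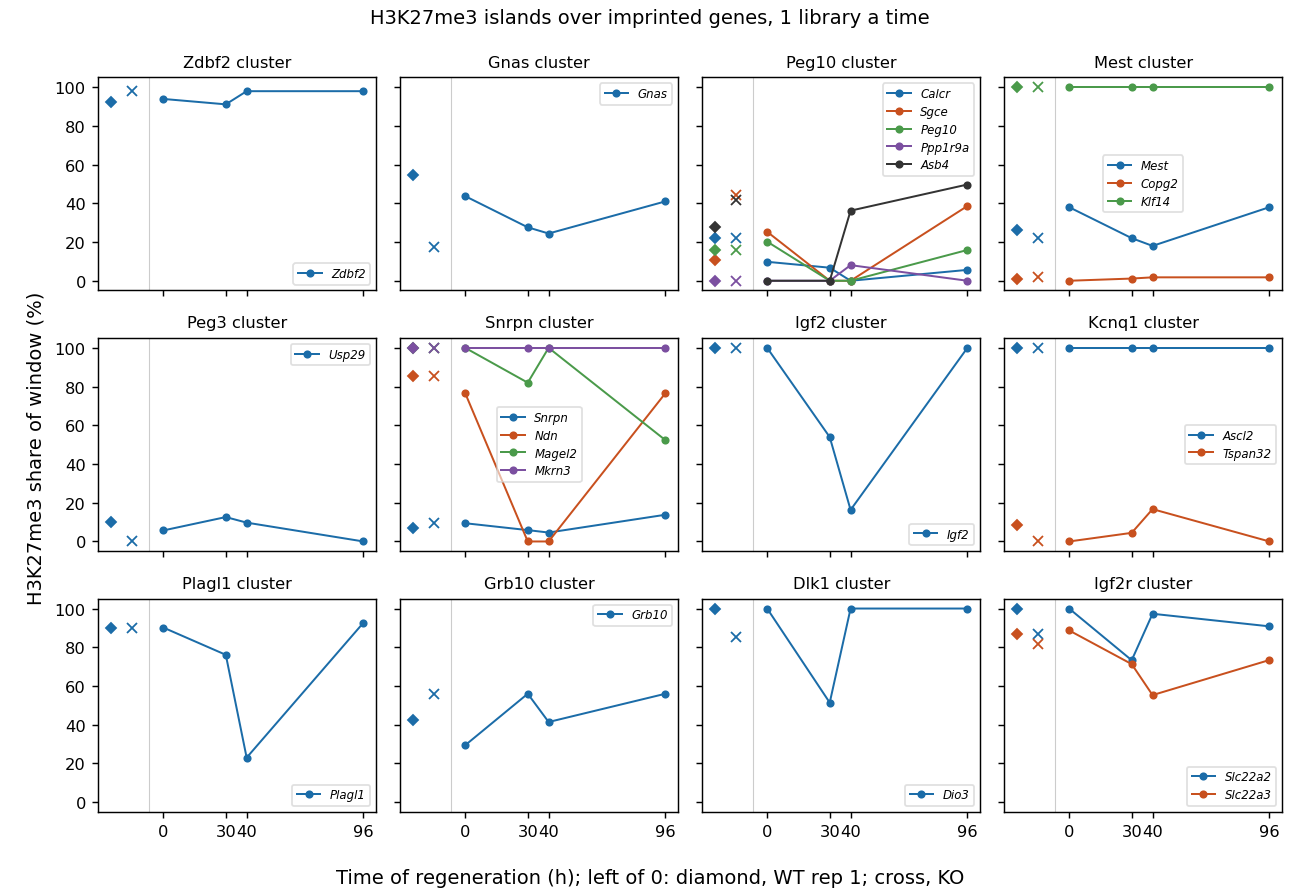
Percent of each gene's window in H3K27me3 islands at 0, 30, 40 and 96 h of WT liver regeneration (points joined by lines, 1 library a time), with WT replicate 1 (diamonds) and KO (crosses) to the left of 0, by cluster, for genes with an island at any of these times. Igf2 and Plagl1 are lowest at 40 h (16.3% and 23.0%), Ndn, Sgce and Peg10 are at 0 at 30 and 40 h, and Klf14, Mkrn3 and Ascl2 stay at 100%.

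The overlap of H3K27me3 at each time was taken with H3K4me3 from the baseline WT libraries, H3K4me3 at these times being not analysed here. It was found at 6 genes at 0 h (9.11% of all genes), 3 at 30 h (3.76%), 4 at 40 h (3.66%) and 5 at 96 h (7.67%). Snrpn, Mkrn3 and Grb10 overlapped at every time, over 726, 679 and 323 bp at 0, 30 and 40 h. At 96 h Snrpn had 1836 bp, since a second island of 49000 bp (chr7:60220001-60269000) took in another H3K4me3 peak. Plagl1 overlapped over 234 bp at 0 and 96 h and not between. Asb4 overlapped over 592 bp at 40 and 96 h and not before, and Sgce and Peg10 at 0 h alone.

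Genes with related roles gave a frame for these counts. Of 20 genes that maintain imprints or their chromatin, among them Uhrf1, Dnmt1, Dnmt3a and Dnmt3b, 19 had H3K4me3 in both libraries of each genotype. In 0 of the 20 did H3K4me3 of both libraries lie over H3K9me3. By replicate 1 alone it did at Zfp445 (2216 bp in WT, 3010 bp in KO) and at Hells in WT (173 bp). Of 26 other imprinted genes or cluster neighbours, 21 had H3K4me3 in each genotype. In that group H3K4me3 met H3K9me3 at Trappc9 in both genotypes (1821 bp in WT, 2585 bp in KO) and at Commd1 in KO alone over 552 bp, which are the bases of Zrsr1 within it. H3K4me3 met H3K27me3 at 3 of the 26 in WT with WT replicate 1 as the island list (6.57% of all genes) and at 3 in KO (8.1%). With WT replicate 2 as the list it did so at 7 (9.11%). Among the markers of other liver cells, Lrat had H3K4me3 over H3K9me3 in both genotypes (17 bp in WT, 165 bp in KO).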

How the data were processed

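ChIP-seq region lists from 12 libraries of mouse liver were used as deposited, and the 3 inputs were not analysed on their own. The submitters' processing notes name BWA, Trimmomatic, Picard, FastQC 0.11.5, SICER and MACS2 and the builds GRCm38.p4 and mm10. The sources used here give no further versions or settings. H3K4me3 and H3K9me3 lists hold peaks per library with a score, a fold over background and −log10 p-value and q-value, all deposited by the authors. H3K27me3 lists hold SICER islands (window 1000 bp, gap 4000 bp) with the authors' ChIP and control read counts, fold, p-value and false discovery rate. Islands with a false discovery rate of 0.01 or below were kept. The depth of the libraries is unknown beyond reads in islands. The H3K4me3 libraries of round 2, which are replicate 2 here, carry an antibody tag naming H3K9me3 and were grouped by title.

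Autosomal (1 to 19), X and Y regions were intersected with the windows of RefSeq protein-coding genes (GRCm38.p6) in Python 3.11.15 with numpy 2.4.6, pandas 2.3.3 and matplotlib 3.10.9, and 500 of 500 simulated windows equalled a base-by-base count. H3K9me3 means broad peaks. Samples were grouped by genotype, mark and time from the labels, and no model was fitted. The genes and lists were chosen with earlier results of these data known. Every gene whose overlap or island differed between genotypes or times was named. Alternatives were the flank, the minimum overlap, stricter peaks or islands, narrow H3K9me3 peaks, either H3K4me3 library, equal covered length and annotated starts.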

Additional observations from a re-analysis of the deposited data

How the results depend on the processing

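Of 100 alternative counts, 71 were within 1.5 times the reported one and 29 were not. No paired analysis was possible because the reported counts come from no test. For H3K4me3, which has a WT and a KO library in each replicate, lengths were compared within each pair as a description. For H3K4me3 over H3K9me3 in WT (0 genes), H3K4me3 of either library gave 7, leaving out each H3K4me3 library gave 0 to 7, and a distance within 500 bp, chosen after seeing the data, gave 6. In KO (5 genes), a minimum overlap of the length of a nucleosome core gave 2, H3K4me3 peaks with a q-value of 1e-05 or below gave 3, narrow H3K9me3 peaks gave 1, H3K9me3 peaks with a q-value of 1e-05 or below gave 0, and leaving out a library gave 5 to 7. For H3K4me3 over H3K27me3, either library gave 13 in WT and 14 in KO, leaving out a library gave 6 to 12 and 7 to 12, and islands of 2-fold or more gave 1 and 0. For islands at 0, 30, 40 and 96 h, a fold of 2 or more left 6, 1, 0 and 7 genes. For baseline H3K4me3 over islands at 0, 30, 40 and 96 h, either library gave 14, 10, 11 and 12, leaving out a library gave 7 to 13, 4 to 9, 5 to 10 and 6 to 11, and a fold of 2 or more gave 1, 0, 0 and 1. The cause of these differences was not tested. The H3K4me3 counts were thus set largely by replicate 2, the sparser library. Flank left every count within 1.5 times, as did equal covered length, run for counts with H3K27me3 alone, and starts, run for the baseline overlaps alone.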
